A study of Mus musculus with 8 samples.

Results

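Genes of blood vessels and their matrix, together with *Lcn2*, were followed through ribosome-associated mRNA of PV+ interneurons in the primary somatosensory cortex (S1) of mice. The 10 genes were taken by name from the 45706 genes of the files. *Kdr*, *Fn1*, *A2m*, *Ctla2a* and *Lcn2* are 5 genes that the study picked from these same samples, so their direction here is no independent evidence. *Cldn5*, *Pecam1*, *Flt1*, *Tek* and *Vwf* are 5 textbook genes of endothelial cells and serve as a reference for vessel mRNA. All 10 had enough reads to be tested, among 17495 genes tested in all.

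All mice carried PvalbFlp/+;Neurod6Cre/+ and received an AAV in S1 at postnatal day 1. The virus, with flox and fdio elements ahead of HA-RPL10a and, after a T2A sequence, myc-hM3Dq, uses the pan-neuronal hSyn promoter, is switched on by Flp in PV+ cells and off by Cre in pyramidal cells, and expresses both a tagged ribosomal protein and hM3Dq, a receptor that raises neuronal activity when CNO is given. Between postnatal days 42 and 70, the CNO group received 5 injections of CNO at 1 mg/kg over 48 h and the vehicle group received vehicle on the same schedule, so both groups carried the receptor. The tagged ribosomes were pulled down through their HA tag from the cortex. Each of the 4 CNO and 4 vehicle samples pooled 4 brains, and p-values therefore measure the spread between pools.

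Endothelial cells line the vessels of the brain and are joined there by tight junctions that form the blood-brain barrier. They respond to VEGF and to angiopoietins through receptor tyrosine kinases on their surface, and they rest on a basement membrane shared with mural cells. Lipocalin 2, the product of *Lcn2*, is a secreted protein that binds iron-carrying siderophores and is made by neutrophils, reactive astrocytes and endothelial cells in inflammation. Neither the virus nor the promoter targets endothelial cells, so that a vessel mRNA in this pulldown is one that the design did not aim at.

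Promoter sequences show what the regulatory DNA of the genes carries just upstream of the transcription start. RefSeq promoters on GRCm38.p6 were at hand for 6 of the 10 genes, *Kdr*, *Ctla2a*, *Lcn2*, *Cldn5*, *Flt1* and *Tek*. The windows of 3 genes are shown because they stand for the endothelial reference and for the pair of genes with the largest differences between groups, each as 250 bases upstream of the start on the strand of the gene. They are *Flt1* at chr5:147726012-147726261 (minus strand) with AGGAAG, a core of ETS factor sites, in capitals, *Ctla2a* at chr13:60936626-60936875 (minus strand) with TGANTCA, the AP-1 site that FOS proteins bind, in capitals, and *Lcn2* at chr2:32387740-32387989 (minus strand) with an outline of NF-kB sites, GGG and CC set 5 bases apart, in capitals, on either strand.
Flt1: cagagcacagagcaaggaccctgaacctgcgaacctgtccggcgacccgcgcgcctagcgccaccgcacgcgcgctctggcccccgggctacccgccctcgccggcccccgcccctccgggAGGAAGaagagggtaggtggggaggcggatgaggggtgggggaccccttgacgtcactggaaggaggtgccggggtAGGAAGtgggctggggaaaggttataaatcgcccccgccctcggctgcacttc
Ctla2a: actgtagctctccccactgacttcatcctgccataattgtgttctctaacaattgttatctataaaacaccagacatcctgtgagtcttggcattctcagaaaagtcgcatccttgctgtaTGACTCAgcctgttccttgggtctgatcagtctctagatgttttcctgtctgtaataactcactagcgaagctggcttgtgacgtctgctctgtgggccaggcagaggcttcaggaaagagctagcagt
Lcn2: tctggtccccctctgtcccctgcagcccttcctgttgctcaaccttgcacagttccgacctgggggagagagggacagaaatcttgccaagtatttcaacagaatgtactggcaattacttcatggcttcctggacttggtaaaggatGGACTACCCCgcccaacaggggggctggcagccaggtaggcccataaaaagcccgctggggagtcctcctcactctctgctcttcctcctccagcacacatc
Of 32851 promoter windows of the same length, 29.5% held AGGAAG, 45.8% held the NF-kB outline and 6.75% held TGANTCA on either strand. The *Flt1* window held AGGAAG at 2 places, the first base 129 and 53 bases upstream of the start. The AP-1 letters of *Ctla2a* began 129 bases upstream, and no other of the 6 genes held them. From a second start of *Ctla2a*, at chr13:60936566, the AP-1 letters began 188 bases upstream, and that window also held AGGAAG at -54. The NF-kB outline of *Lcn2* lay on the opposite strand, with its first base at -102, and the same window held AGGAAG at 3 places on that strand. *Kdr*, *Cldn5*, *Flt1* and *Tek* held the NF-kB outline as well. These matches describe letters only.

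Sequencing gave 44064161 to 49413273 counts on genes per sample. Taken as the detection floor, 3 counts correspond to 0.0607 to 0.0681 CPM (counts scaled to a library total) before TMM normalization. The CPM of genes given here are TMM-normalized. The floor takes account of counting error alone, since PCR copies are not separate molecules. *Pvalb*, the gene that defines the targeted cells, had 819.7 to 1160 TPM (counts per transcript length, scaled to a common total) in the CNO samples and 300.1 to 1050 in the vehicle samples, and the low value was that of vehicle replicate 1. The summed TPM of 12 PV interneuron markers was 1244 in that sample and 2662 to 4133 in the other 7. *Fos*, which neurons express when active, had 32.2 to 69.5 CPM with CNO and 11.3 to 15.8 with vehicle. Log2 of the counts plus 1 correlated across tested genes at 0.963 to 0.988 over all pairs of the 8 samples, within and between groups. No samples were identical.

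The vessel genes were present in every sample, and none of the 10 passed the test of CNO against vehicle. All 10 had a higher fitted level with CNO, by a median log2 fold change of 0.34, whereas the median of all genes tested was 0.001 and 50.4% of them had a value above 0. Of the 10, 5 were picked from these same samples. The 5 reference genes varied together (Pearson's r of log2 CPM 0.842 to 0.95 in 10 pairs), so the 10 are not independent values. A gene was called when its adjusted p was below 0.05, its fold change over 1.5 and its mean TPM over 1, and 0 of the 10 genes met these limits, as did 0.0% of all genes tested (edgeR's quasi-likelihood test, 0 genes). At an unadjusted p under 0.05 there was 1 of the 10, *Lcn2*, against 4.09% of all genes tested (1.44% higher, 252 genes, and 2.65% lower, 464 genes). In 0 of the 10 genes did all CNO samples lie above all vehicle samples, which 0.789% of all genes tested did, and 0 of the 10 were non-overlapping in the other direction, against 1.63% (2.42% in either direction). Above 1.5-fold higher by the fitted value were 3 of the 10, *A2m*, *Ctla2a* and *Lcn2*, against 1.34% of all genes tested. All 3 are among the genes picked from these samples, so this share is no independent evidence. The edgeR likelihood ratio test with robust dispersion called 12 genes (0.0686%) and DESeq2 called 10 (0.0572%), and neither called any of the 10. The median was 0.63 for the picked 5 and 0.28 for the reference 5. Single libraries moved these medians. That of the 10 genes was 0.17 without CNO replicate 3, 0.61 without CNO replicate 1 and 0.55 without vehicle replicate 3. Without CNO replicate 4 the picked and the reference genes had medians of 0.28 and 0.22, and without CNO replicate 1 they had 0.99 and 0.49. The reference median was 0.14 without CNO replicate 3 and 0.43 without vehicle replicate 3. *A2m* had a mean of 0.912 TPM, under the cut-off of 1, so it could not be called at any p.

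**Figure D1:**
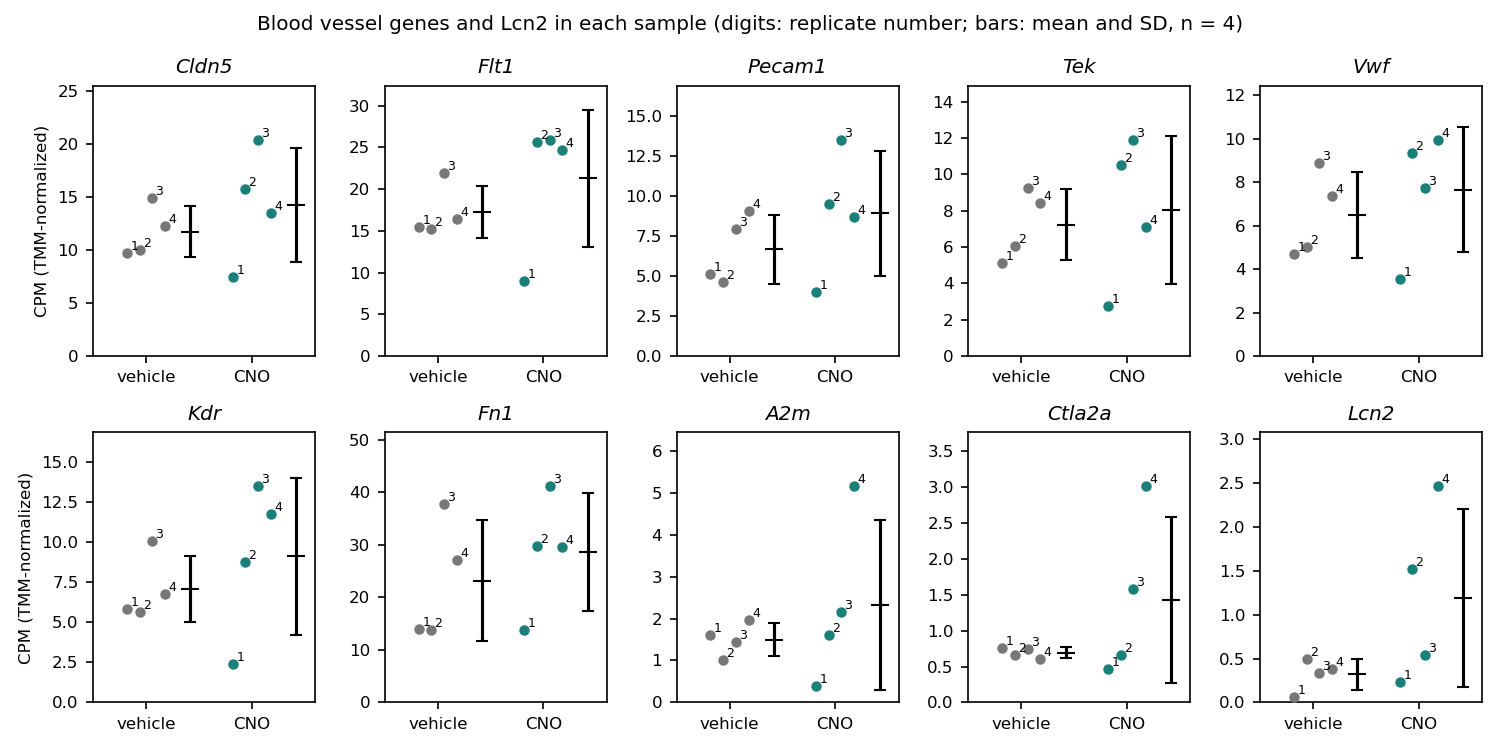
Level of each gene in each sample, in TMM-normalized CPM on linear axes that start at 0, for 4 vehicle samples (grey) and 4 CNO samples (green). Digits give the replicate number and black bars the mean and SD. The groups overlap for every gene, CNO replicate 1 is the lowest of the 8 samples for 8 of the 10 genes, all but *Fn1* and *Lcn2*, and the highest values of *A2m*, *Ctla2a* and *Lcn2* are those of CNO replicate 4.

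Compared per length, in TPM averaged over the 8 samples, *Cldn5* was the most abundant of the 10 with 22.9 ± 6.87 (SD, n = 8), followed by *Flt1* with 11.2 ± 3.18 and *Fn1* with 7.98 ± 2.93. *Pecam1* (5.65 ± 2.31), *Tek* (4.00 ± 1.59) and *Kdr* (3.04 ± 1.28) came next, and *Lcn2* (2.20 ± 2.33), *Vwf* (1.93 ± 0.55), *Ctla2a* (1.91 ± 1.44) and *A2m* (0.912 ± 0.63) were lowest. Neighbours in this order were compared within samples by a two-sided exact sign-flip test over the 256 sign patterns, adjusted over 9 pairs. The neighbours from *Cldn5* down to *Tek*, and *Ctla2a* and *A2m*, differed in all 8 samples (adjusted p = 0.0141 for each pair), and *Tek* exceeded *Kdr* in 7 of 8 (exact sign-flip test, adjusted p = 0.0469). *Kdr* and *Lcn2* did not differ beyond their spread (exact sign-flip test, adjusted p = 0.1), nor did *Lcn2* and *Vwf* or *Vwf* and *Ctla2a* (0.414 for both pairs). All 10 genes were thus far below *Pvalb*, but *Cldn5* and *Flt1* stayed above 5 TPM in every sample.

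*Kdr*, *Flt1* and *Tek* encode receptors for vessel growth factors. *Kdr* (ENSMUSG00000062960, chr5:75932827-75978458, minus strand, GRCm38) encodes VEGFR2, the main signalling receptor for VEGF on endothelial cells. Its level was 2.40, 8.81, 13.5 and 11.8 CPM in CNO replicates 1 to 4 and 5.81, 5.64, 10.1 and 6.76 CPM in vehicle replicates 1 to 4. CNO replicates 3 and 4 were above every vehicle sample, CNO replicate 1 was below every vehicle sample, and the range within the CNO group was 5.65-fold. The means were 9.13 ± 4.89 CPM with CNO and 7.07 ± 2.06 with vehicle (SD, n = 4 each), a log2 fold change of 0.37 (standard error 0.41, adjusted p = 0.825, edgeR's quasi-likelihood test, here and for the genes that follow). An exact permutation test over the 70 assignments of 4 against 4 gave p = 0.886 for *Kdr* (two-sided, as in all such tests here). For each gene this test compares the group means of log2 CPM, in which a single high sample weighs less than in the fitted log2 fold change.

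*Flt1* (ENSMUSG00000029648, chr5:147561604-147726011, minus strand) encodes VEGFR1, which binds VEGF and limits its action on VEGFR2. It had 9.03, 25.7, 25.9 and 24.7 CPM in the CNO samples and 15.5, 15.2, 21.9 and 16.4 CPM in the vehicle samples, in the order of the replicate numbers. CNO replicates 2 to 4 lay close together above every vehicle sample, whereas CNO replicate 1 was the lowest of all 8. The log2 fold change was 0.30 (adjusted p = 0.817, standard error 0.28), and the exact permutation p was 0.657. *Tek* (ENSMUSG00000006386, chr4:94739289-94874976, plus strand) encodes TIE2, the receptor for angiopoietins. It had 2.73, 10.5, 11.9 and 7.11 CPM with CNO and 5.14, 6.06, 9.26 and 8.45 CPM with vehicle. The vehicle samples thus lay inside the range of the CNO samples, and the log2 fold change of 0.15 (standard error 0.37, adjusted p = 0.914) was the smallest of the 10. Its sign turned without CNO replicate 3 (-0.09), and on TPM it was also below 0 (-0.07 by limma on log2(TPM + 1)).

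Genes of the endothelial junctions did not pass the test either. *Cldn5* (ENSMUSG00000041378, chr16:18776847-18778262, plus strand) encodes claudin 5, the main tight junction protein of the blood-brain barrier. Its levels were 7.42, 15.8, 20.4 and 13.5 CPM with CNO and 9.77, 9.99, 14.9 and 12.3 CPM with vehicle, with CNO replicates 2 and 3 above every vehicle sample and CNO replicate 1 below. Its log2 fold change came to 0.28 (standard error 0.26, adjusted p = 0.817). *Pecam1* (ENSMUSG00000020717, chr11:106654217-106750628, minus strand), which encodes the adhesion molecule CD31, had 3.99, 9.47, 13.5 and 8.69 CPM with CNO and 5.10, 4.59, 7.91 and 9.06 CPM with vehicle. Again CNO replicates 2 and 3 were the highest and CNO replicate 1 the lowest, and the log2 fold change was 0.42 (adjusted p = 0.817, standard error 0.33). Exact permutation tests gave p = 0.543 for *Cldn5* and 0.514 for *Pecam1*.

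Secreted proteins of the vessel wall are represented by *Vwf* and *Fn1*. *Vwf* (ENSMUSG00000001930, chr6:125546774-125686679, plus strand) encodes von Willebrand factor, a clotting protein that endothelial cells store and release. It had 3.56, 9.36, 7.73 and 9.95 CPM with CNO and 4.70, 5.02, 8.87 and 7.36 CPM with vehicle, with both groups spread over a similar range. The log2 fold change was 0.24, with a standard error of 0.30 (adjusted p = 0.842, exact permutation p = 0.686). *Fn1* (ENSMUSG00000026193, chr1:71585520-71653200, minus strand) encodes fibronectin, a matrix protein to which integrins attach. It had 13.8, 29.8, 41.1 and 29.5 CPM in the CNO samples and 14.0, 13.8, 37.7 and 27.2 CPM in the vehicle samples. Its levels split both groups, with CNO replicate 1 and vehicle replicates 1 and 2 near 14 CPM and the other 5 samples from 27.2 to 41.1. The means were 28.5 ± 11.2 and 23.2 ± 11.5 CPM (SD, n = 4 each), and the log2 fold change was 0.30 (adjusted p = 0.832, standard error 0.36, exact permutation p = 0.457). An antisense gene, *Apol7d*, overlaps *Fn1*, and the SMARTer kit used does not keep strand, so reads of the pair could be mixed where they overlap.

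*A2m*, *Ctla2a* and *Lcn2* were the genes with the largest fitted differences and the widest spread. *A2m* (ENSMUSG00000030111, chr6:121635376-121679227, plus strand) encodes alpha-2-macroglobulin, a secreted inhibitor of many proteases. It had 0.382, 1.61, 2.16 and 5.15 CPM with CNO and 1.61, 1.00, 1.43 and 1.96 CPM with vehicle, from 18 counts in CNO replicate 1 to 245 in CNO replicate 4. CNO replicates 1 and 4 were the lowest and the highest of the 8, a 13.5-fold range within the CNO group against 1.95-fold within the vehicle group. The log2 fold change was 0.63 (adjusted p = 0.817, standard error 0.56, exact permutation p = 0.8), and it was -0.13 without CNO replicate 4.

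*Ctla2a* (ENSMUSG00000044258, chr13:60934155-60936625, minus strand) encodes a small inhibitor of cathepsin L-like proteases. Its vehicle samples were close together at 0.760, 0.662, 0.748 and 0.605 CPM, 30 to 36 counts each. The CNO samples were spread over 0.466, 0.655, 1.58 and 3.01 CPM, 22 to 143 counts, so that CNO replicate 1 was below every vehicle sample, CNO replicate 2 was within their range and CNO replicates 3 and 4 were above them. The means were 1.43 ± 1.16 and 0.694 ± 0.0734 CPM (SD, n = 4 each), a log2 fold change of 1.04 (standard error 0.50, adjusted p = 0.817, exact permutation p = 0.4). Without CNO replicate 4 the log2 fold change was 0.37. In GENCODE M21, 37.8% of the 31-base stretches of *Ctla2a* transcripts recur in transcripts of other genes, 28.4% counting only the deposited genes. The largest share, 22.8%, was with *Gm49391*, which like *Gm49393* overlaps *Ctla2a* on the same strand. Neither of these 2 is among the deposited genes. The relative *Ctla2b* shared 20.7%, so the counts of *Ctla2a* are uncertain. *Ctla2b* itself had at most 15 counts in a sample and was not tested.

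*Lcn2* (ENSMUSG00000026822, chr2:32384633-32388252, minus strand) shared 0% of its 31-base stretches with other genes. It had 11, 72, 25 and 117 counts in the CNO samples and 3, 23, 16 and 19 in the vehicle samples, or 0.233, 1.52, 0.535 and 2.46 CPM against 0.0671, 0.491, 0.332 and 0.383 CPM. CNO replicates 2, 3 and 4 were above every vehicle sample, but CNO replicate 1 lay below 3 of the vehicle samples and CNO replicate 3 only just above the highest of them. Vehicle replicate 1 was at the floor of 3 counts. The means were 1.19 ± 1.01 CPM with CNO and 0.319 ± 0.18 with vehicle (SD, n = 4 each). The log2 fold change of 1.88 (standard error 0.69) was the largest of the 10, and its unadjusted p was 0.0197, with an adjusted p of 0.817 (edgeR's quasi-likelihood test). The exact permutation test gave p = 0.2, where 4 against 4 could reach 0.0286. The log2 fold change was 1.26 without CNO replicate 4 and 2.23 without CNO replicate 1. Without vehicle replicate 1, the sample at the floor and low in *Pvalb*, it was 1.56, and the median of the 10 genes was 0.27.

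**Figure D2:**
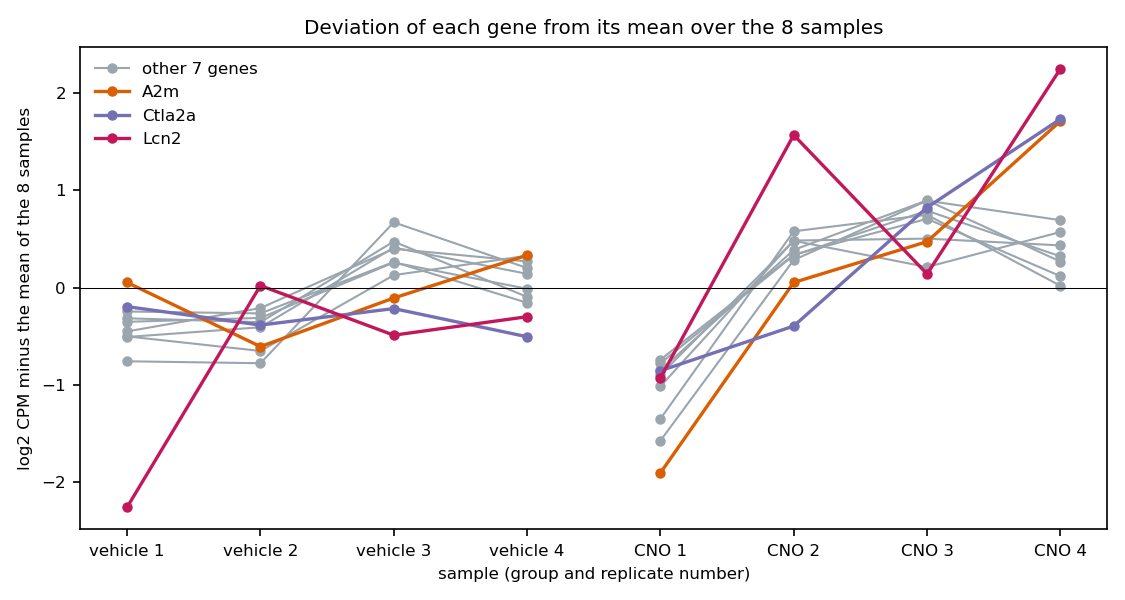
Log2 CPM of each gene minus its mean over the 8 samples, by sample, with lines joining samples of one group in the order of their labels only. The 7 grey genes (*Cldn5*, *Flt1*, *Pecam1*, *Tek*, *Vwf*, *Kdr* and *Fn1*) move as a bundle, low in CNO replicate 1 and in vehicle replicates 1 and 2. *A2m*, *Ctla2a* and *Lcn2* each leave it in several samples, and all 3 lie above it in CNO replicate 4. Among other samples, *Lcn2* is above it in CNO replicate 2 and far below it in vehicle replicate 1. *Ctla2a* lies below it in CNO replicate 2 and vehicle replicates 3 and 4. *A2m* lies below it in CNO replicates 1 and 2 and vehicle replicate 3, and above it in vehicle replicate 1.

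The reference genes, *Kdr* and *Fn1* varied together from sample to sample. Among these 7 genes, Pearson's r of log2 CPM over the 8 samples lay between 0.824 and 0.97 in 21 pairs. Between these and *A2m*, *Ctla2a* or *Lcn2* it lay between 0.379 and 0.848 in 21 pairs. Summed over the reference 5, the level was 23.1, 59.8, 65.3 and 46.4 TPM in CNO replicates 1 to 4 and 37.5, 34.8, 51.8 and 47.2 TPM in vehicle replicates 1 to 4. The CNO samples thus spanned both the lowest and the highest vessel levels, and the vehicle samples lay between.

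An endothelial index was formed as the mean log2 CPM of 24 other endothelial genes, none of them among the 10. It was 1.37, 2.45, 2.55 and 2.01 in CNO replicates 1 to 4 and 1.80, 1.84, 2.23 and 2.09 in vehicle replicates 1 to 4. Its group means of 2.09 ± 0.54 and 1.99 ± 0.20 (SD, n = 4 each) were 0.10 apart, and the 8 samples spanned 1.18. The index may vary with the number of endothelial cells, with their RNA per cell or with how much untargeted mRNA came through the pulldown. These cannot be told apart in such bulk samples. *Tek*, *Cldn5*, *Pecam1* and *Flt1* followed the index closely, with Pearson's r of 0.979, 0.974, 0.914 and 0.912 and Spearman's rho of 1.0, 0.976, 0.905 and 0.905. Exact permutation over all 40320 orders of the 8 samples, adjusted over 10 relations, gave p = 0.000248, 0.00062, 0.00558 and 0.00558 for r, and p = 0.000496, 0.00198, 0.0114 and 0.0114 for rho. *Kdr* (r = 0.878, rho = 0.81), *Fn1* (0.857, 0.881) and *Vwf* (0.82, 0.69) also followed it, with adjusted exact permutation p of 0.00928, 0.00951 and 0.0164 for r and 0.0363, 0.0145 and 0.0991 for rho.

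For *A2m*, *Ctla2a* and *Lcn2* the relation to the index was not shown. Their r was 0.583, 0.367 and 0.453 and their rho 0.452, 0.286 and 0.571 (adjusted exact permutation p = 0.149, 0.367 and 0.287 for r and 0.297, 0.501 and 0.189 for rho). Leaving out CNO replicates 1 and 3, the samples farthest from the median index, r of the 5 reference genes stayed between 0.763 and 0.964 and that of *Fn1* at 0.797. That of *Kdr* fell to 0.569, so that its relation rests in part on those samples, and those of *A2m*, *Ctla2a* and *Lcn2* were 0.024, -0.157 and 0.502. Correlations of deviations from the group means were almost the same as those over all samples, 0.878 for *Kdr* and 0.455 for *Lcn2*. The labels name no batch of preparation or sequencing, so no within-batch value could be given.

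**Figure D3:**
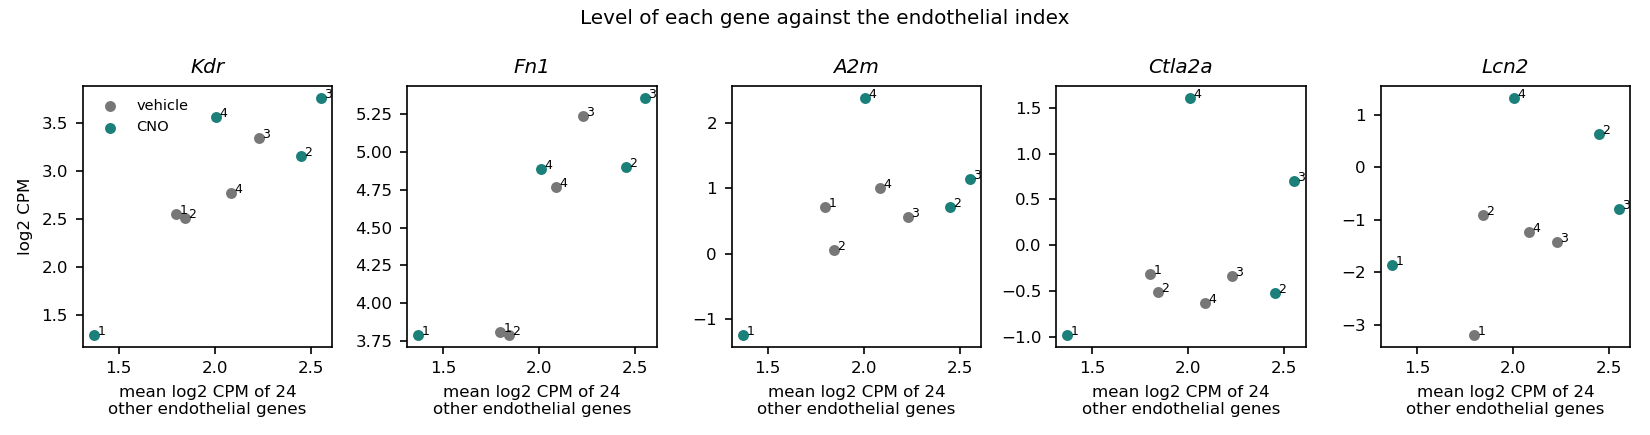
Log2 CPM of the 5 picked genes against the endothelial index, the mean log2 CPM of 24 other endothelial genes, for 4 vehicle samples (grey) and 4 CNO samples (green) with their replicate numbers. *Kdr* and *Fn1* rise with the index, at r of 0.878 and 0.857, whereas the highest values of *A2m*, *Ctla2a* and *Lcn2* are in CNO replicate 4, whose index of 2.01 lies mid-range.

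Relative to the index, *Lcn2* was -3.23, -1.80, -3.34 and -0.68 log2 units in CNO replicates 1 to 4 and -4.99, -2.75, -3.64 and -3.32 in vehicle replicates 1 to 4. The CNO mean was 1.41 higher, and CNO replicates 2 and 4 were above every vehicle sample (exact permutation p = 0.171, adjusted over 10 genes 0.857). *A2m* relative to the index was 0.37 in CNO replicate 4 and -2.61 to -1.07 in the other 7 samples. *Ctla2a* relative to the index was -0.40 in CNO replicate 4 and -2.97 to -1.85 in the other 7. Both genes thus stood out in 1 library, and their group differences relative to the index were 0.06 and 0.55 (exact permutation p = 0.971 and 0.429). These differences, like that of *Lcn2*, are between group means of log2 values. They are another measure than the fitted log2 fold changes (0.63 for *A2m* and 1.04 for *Ctla2a*), so the 2 cannot be set against each other. For the other 7 genes the same differences lay between -0.11 for *Tek* and 0.24 for *Pecam1*.

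The edgeR fit was repeated with the index as a covariate, which takes up what the genes share with other endothelial genes. The log2 fold change of *Kdr* became 0.05 (standard error 0.26), that of *Fn1* 0.14 (0.22), and those of *Cldn5*, *Flt1*, *Pecam1*, *Vwf* and *Tek* 0.09, 0.09, 0.19, 0.10 and -0.19. Those of *A2m*, *Ctla2a* and *Lcn2* stayed at 0.47 (standard error 0.57), 0.96 (0.53) and 1.74 (0.71). Adjusted p with the index lay between 0.832 and 0.963 over the 10 genes, so none differed between CNO and vehicle in this fit either.

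**Figure D4:**
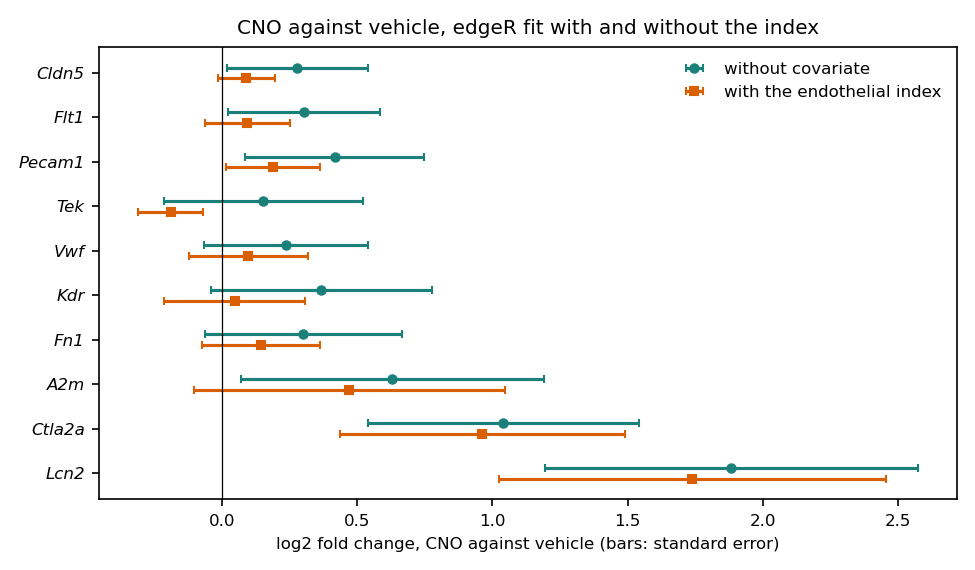
Log2 fold change of CNO against vehicle for each gene with its standard error, from the edgeR fit without a covariate (circles) and with the endothelial index as a covariate (squares). With the index the 7 upper genes lie between -0.19 and 0.19, and *Lcn2* stays at 1.74.

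The genes closest in pattern to the reference 5 were sought among 15164 genes with a mean TPM above 1, by Pearson's r with their mean log2 CPM over the 8 samples. The first 10 were *Adgrf5* (0.992), *Abcb1a* (0.991), *Thsd1* (0.985), *Msn* (0.977), *Tgm2* (0.976), *Lamc3* (0.975), *Eng* (0.969), *Lsr* (0.968), *Sparc* (0.967) and *Lamb2* (0.967). Of these 10, 5, namely *Abcb1a*, *Eng*, *Lsr*, *Sparc* and *Lamb2*, are on the lists of vessel genes used here, and none was called (log2 fold changes of the 10 from 0.06 to 0.44). The 5 genes closest to *Lcn2* were *Rasl11a* (0.948), *A930017M01Rik* (0.931), *Scel* (0.917), *1700112E06Rik* (0.908) and *Nelfb* (0.907), and none of them is on a vessel list. Such values are the extremes of a search over all these genes and describe likeness in 8 samples only.

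Other genes of endothelial cells and of the vessel wall lay on both sides of 0. Of 24 other endothelial genes tested, 14 had a higher fitted level with CNO and 10 a lower one, the median log2 fold change being 0.09. Of the 24 only *Nos3*, the endothelial nitric oxide synthase gene, had an unadjusted p under 0.05 (log2 fold change 0.47, adjusted p = 0.817, edgeR's quasi-likelihood test). *Tie1*, the partner receptor of TIE2, and *Cdh5*, which encodes the endothelial cadherin, had values of 0.49 and 0.40. *Sox7* (-0.27), *Cd34* (-0.19) and *Emcn* (-0.15) had values below 0. Of 16 transport and junction genes of the blood-brain barrier, 11 were higher and 5 lower (median 0.15), with the glucose transporter gene *Slc2a1* at 0.21, the efflux pump gene *Abcb1a* at 0.37 and *Mfsd2a*, a lipid transporter gene, at -0.17. The smallest p of the list was that of *Slco2b1*, an organic anion transporter gene, at -0.32 (adjusted p = 0.817, edgeR's quasi-likelihood test).

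Around VEGF and angiopoietin signalling, 21 genes were tested, among them *Kdr*, *Flt1* and *Tek*, with 13 higher, 8 lower and a median of 0.07. The ligand genes *Vegfa*, *Vegfb* and *Vegfc* had log2 fold changes of 0.06, 0.23 and 0.24. The angiopoietin genes *Angpt1* and *Angpt2* had -0.18 and 0.35. Lower at an unadjusted p under 0.05 were 2 of the 21. These were *Nrp2*, a co-receptor for VEGF and semaphorins (log2 fold change -0.45), and *Apln*, which encodes the peptide apelin (-0.28). Both values are opposite in sign to that of *Kdr*, and both adjusted p were 0.817 by edgeR's quasi-likelihood test.

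Of 18 mural cell genes 11 were higher (median 0.11), with *Pdgfrb*, the receptor of pericytes for PDGF, at -0.13, *Rgs5* at 0.19 and *Foxs1*, the one with the smallest p, at 0.67. Of 18 genes of the basement membrane and of perivascular fibroblasts 15 were higher, with a median of 0.06 and values from -0.09 to 0.41, and the smallest p was that of *Col4a1*, a collagen of the basement membrane, at 0.24. Of 7 tested integrin genes whose products bind fibronectin 2 were higher and 5 lower (median -0.20), among them *Itga5*, the partner of *Itgb1* in the fibronectin receptor, at 0.06 and *Itga4* at -0.33. In each of these lists 0 genes were called and in 0 did the groups not overlap.

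**Figure D5:**
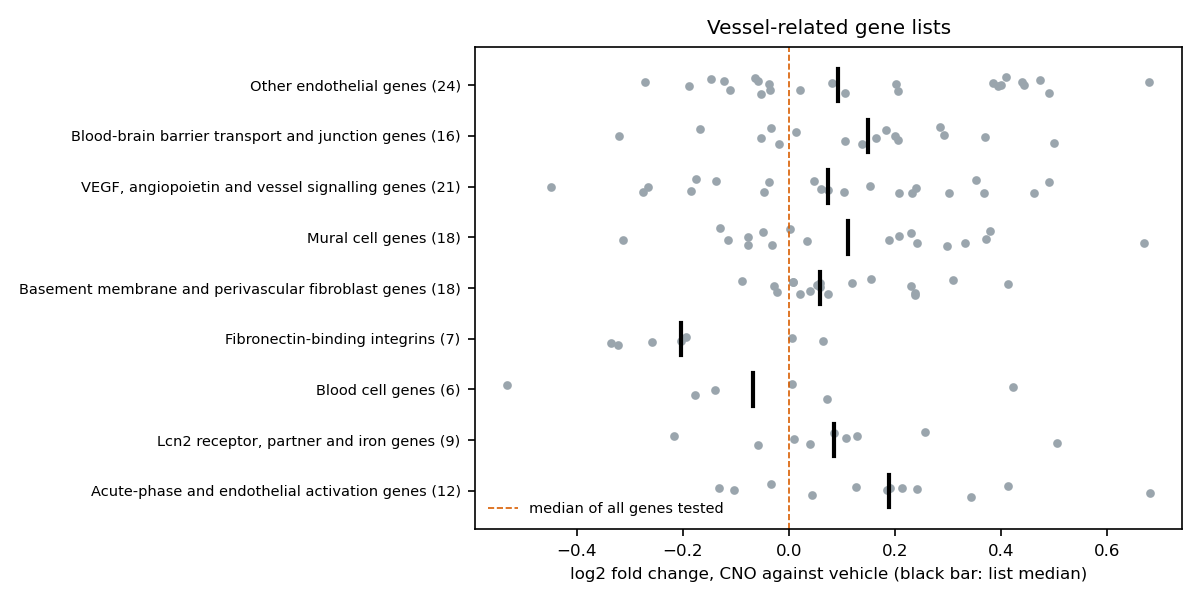
Log2 fold change of CNO against vehicle of each tested gene (grey) in 9 vessel-related lists, with the list median as a black bar, the median of all genes tested as a dashed line and the number of genes tested in brackets. The medians lie between -0.20 for the integrins and 0.19 for the acute-phase and endothelial activation genes.

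Partners and neighbours of *Lcn2* were read in the same way. Of 9 tested genes for its receptor, its partner and iron handling, 7 were higher with a median of 0.08. The receptor gene *Slc22a17* had 0.13, *Mmp9*, whose product forms a complex with lipocalin 2, had 0.26 and the iron exporter gene *Slc40a1* had -0.22. *Heph*, a ferroxidase gene, had the smallest p of this list and a log2 fold change of 0.51 (adjusted p = 0.817, edgeR's quasi-likelihood test). *Lrp2*, the megalin receptor gene, had at most 4 counts in a sample and *Hamp* had 0 in all. Of 12 tested acute-phase and endothelial activation genes, 9 were higher and 3 lower, with a median of 0.19 and 0 genes at an unadjusted p under 0.05. Among them were *C3* at 0.68, *Osmr* at 0.41, *Nfkbia*, an inhibitor and target of NF-kB, at 0.21, and *Serpina3n*, an acute-phase gene that astrocytes express, at 0.18. *Socs3*, *Vcam1* and *Icam1* had 0.04, -0.03 and 0.24. *Saa3* had 0 counts in all samples, and *Saa1*, *Saa2* and *Hp* had at most 3.

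Markers of neutrophils and platelets had few counts, whereas haemoglobin genes did not. The platelet genes *Pf4* and *Ppbp* had at most 8 and 2 counts in a sample. *Ngp*, *S100a8* and *S100a9*, which with *Ly6g* mark neutrophils, had at most 3 counts in any sample and *Ly6g* had 0. *Lcn2* reached 117 counts, *Ptprc* 123 and *Itgal*, also on this list, 24. Which cells the *Lcn2* reads came from was not tested. The haemoglobin genes *Hbb-bs* and *Hba-a1* had 32.1 to 78.9 and 28.1 to 73.7 TPM over the 8 samples. *Ptprc*, which encodes the leukocyte antigen CD45, had only 0.573 to 1.88 TPM, a range that overlaps that of *Pf4* (0.27 to 1.55). *Ptprc* had the smallest p of this list (log2 fold change -0.53, adjusted p = 0.817, edgeR's quasi-likelihood test). The summed TPM of 15 blood cell genes was 98.9 to 233.5 with CNO and 129.7 to 206.3 with vehicle. CNO replicate 2, with the second highest *Lcn2* level, had the highest sum, whereas CNO replicate 4, with the highest *Lcn2* level, had 142.6. Of 4 tested relatives and partners of *A2m* and *Ctla2a*, the receptor gene *Lrp1* had a log2 fold change of -0.10, and the cathepsin genes *Ctsl*, *Ctsb* and *Ctss* had 0.17, 0.21 and -0.27. *Mug1* and *Mug2*, close relatives of *A2m*, were at 0 in every sample.

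Several lists of markers of other cell types lay on one side of 0. All 12 PV interneuron markers had higher fitted levels with CNO (median 0.43, 1 at an unadjusted p under 0.05), and the mean log2 CPM of PV markers minus that of pyramidal cell markers was 1.13 ± 0.46 with CNO and 0.50 ± 0.83 with vehicle (SD, n = 4 each). Of 12 pyramidal cell markers 11 were lower (median -0.14), as were 8 of 8 microglial markers (median -0.21), 8 of 8 oligodendrocyte markers (-0.23) and 5 of 8 astrocyte markers (-0.09). Without vehicle replicate 1, the library low in *Pvalb*, the medians were 0.19 for the PV interneuron markers, -0.08 for the pyramidal cell markers, -0.13 for the microglial, -0.15 for the oligodendrocyte and -0.02 for the astrocyte markers. Without CNO replicate 4 the PV interneuron median was 0.28. The summed TPM of the other endothelial list was 176.0 to 341.4 with CNO and 237.4 to 280.6 with vehicle, and that of 18 mural cell genes 63.3 to 139.5 and 70.2 to 117.4. In the fit with the PV minus pyramidal marker index as a covariate, 0 of the 10 genes were called, and their median log2 fold change was 0.25. The value of *Kdr* was 0.23 in that fit, that of *Fn1* 0.11, that of *A2m* 0.34, that of *Ctla2a* 0.71 and that of *Lcn2* 1.45. The reference genes *Cldn5*, *Pecam1*, *Flt1*, *Tek* and *Vwf* had 0.23, 0.32, 0.27, 0.10 and 0.09. The part of the other marker levels in the values of the 10 genes was not tested.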

How the data were processed

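Ribosome-associated mRNA was sequenced in 4 CNO and 4 vehicle samples, numbered 1 to 4 in the labels, each pooled from 4 brains. The authors made libraries with a low-input SMARTer kit, used Trim Galore, STAR, Salmon and tximport, and named GRCm38 as the genome. The authors deposited estimated counts per gene, neither normalized nor filtered, and TPM values, in which length is taken into account and each sample has the same total. They ran these tools in a Nextflow RNA-seq pipeline.

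Estimated counts were rounded. A gene was left out when at least 4 samples had under 10 counts, and the rest were analysed in R 4.3.3 with edgeR 4.0.16 (TMM, quasi-likelihood test, Benjamini-Hochberg adjustment over 17495 genes; common biological coefficient of variation 0.183). Log2 CPM of single samples used a prior count of 2. The test was tried on simulated counts for 17495 genes, drawn independently of one another, so shifts shared by genes within a sample were absent. Of 50 genes changed by each of 1.5, 2, 4 and 8 times, 16, 36, 47 and 49 had an adjusted p under 0.05. Only the true direction counted for these, no fold or TPM cut-off was set, and 14 unchanged genes also passed. Alternatives used DESeq2 1.42.0 and limma 3.58.1, other normalizations, filters, covariates and samples. Depth was 44064161 to 49413273 counts per sample. Gene positions and shared 31-base stretches came from GENCODE M21 (GRCm38), which holds 45143 of 45706 identifiers and all 10 symbols, and promoters from RefSeq (GRCm38.p6). Plots were drawn with matplotlib 3.10.9.

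The 10 genes and the lists were chosen with earlier results of these data known. Genes named are the 10, list members (the one with the smallest p in each vessel list, and others chosen for their known roles), and the 10 and 5 genes most correlated with the reference genes and with *Lcn2*. Gene-by-gene comparisons of the authors and experiments other than RNA-seq were not used here.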

Additional observations from a re-analysis of the deposited data

Results flagged for a closer look

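*Flt1* in the CNO group had 1 sample far from the others. CNO replicate 1 was at 3.18 log2 CPM and the nearest of the other 3 CNO samples at 4.63, a gap of 0.953 of the range of the group, above Dixon's 95% critical value for 4 samples. Among 22 groups examined this was the only 1, and chance flags about 1 in 20, or 1.1 of 22. CNO replicate 1 was also the lowest CNO sample for the other 9 genes and for the endothelial index.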

How the results depend on the processing

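The count of genes called moved from 0 to 12 with edgeR's likelihood ratio test with robust dispersion, 10 with DESeq2, 4 with no filter on low counts, 3 with a block of replicate numbers 1 and 2 against 3 and 4, and 0 to 2 with each sample left out in turn (2 without CNO replicate 1). Among alternatives chosen after seeing the data it was 23 with robust dispersion and that block together and 1 without CNO replicates 1 and 4. None of the 10 genes was called under any of the 22 alternatives, the lowest adjusted p being 0.195, for *Lcn2* with robust dispersion and that block. Of 220 log2 fold changes 215 kept their direction and 5 reversed. *Tek* was -0.07 and -0.13 by limma on log2(TPM + 1) and log2(TPM + 0.1), -0.19 with the endothelial index and -0.09 without CNO replicate 3, and *A2m* was -0.13 without CNO replicate 4. Over these omissions of single samples, the log2 fold change ranged from 0.11 to 0.69 for *Kdr*, 0.07 to 0.64 for *Fn1*, -0.13 to 0.99 for *A2m*, 0.37 to 1.33 for *Ctla2a* and 1.26 to 2.23 for *Lcn2*. For the reference genes it ranged from 0.05 to 0.49 (*Cldn5*), 0.14 to 0.66 (*Pecam1*), 0.19 to 0.56 (*Flt1*), -0.09 to 0.44 (*Tek*) and 0.09 to 0.47 (*Vwf*). The low ends came without CNO replicate 3 or 4. The high ends came without CNO replicate 1, except that of *Fn1*, which came without vehicle replicate 3. The cause of these moves was not tested. Deviations of same-numbered CNO and vehicle samples correlated at 0.026, -0.03, 0.161 and 0.239, so the replicate numbers were not taken as pairs, and with a replicate block 0 genes were called. For CNO replicates 1 to 4 the vehicle replicates with the highest such correlation were 2, 1, 3 and 3. Each best match thus lay within the same block, numbers 1 and 2 or 3 and 4. Depth limits *Lcn2* most, since vehicle replicate 1 held 3 counts, and reads of *Ctla2a* can fall on related genes.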
